A study of Rattus norvegicus with 15 samples.

Results

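Toll-like receptors (TLRs) and their adaptor Myd88 were followed in RNA-Seq libraries of whole retina from wild-type Sprague-Dawley rats at postnatal week 12, collected on day 31 of the study. The genes were taken by symbol, *Tlr1* to *Tlr9* and *Myd88*. Of these 10 genes, 9 were found among the 20375 genes listed, and *Tlr1* was not analysed here. There were 5 groups of 3 libraries. The NT group was healthy and untreated. The Sham group received systemic sodium iodate (NaIO3), an oxidant that damages the retinal pigment epithelium and then the photoreceptors, at 40 mg/kg, with vehicle in place of cells. The MSC, MSCEPO and DPSC groups received the same NaIO3 dose and an intravitreal injection of cells, at 100000 cells per µl in the labels (the study's methods give a lower density). The methods, which cover MSC and MSCEPO, place the injection some days before NaIO3. They start the count of days at NaIO3, whereas a figure legend of the study counts day 31 from the operation. By the methods, MSC were human mesenchymal stem cells from Wharton's jelly, and MSCEPO were the same kind of cells carrying erythropoietin and a fluorescent tag on a lentivirus. The labels do not spell out DPSC, and the study's methods do not describe that group. By the labels, rats with xenografts also received dexamethasone at 2 mg/kg before surgery and cyclosporin at 10 mg/kg per day afterwards. Immunosuppression is given for no other rats, so the injected cells and the drugs cannot be told apart in any comparison of a cell group with NT or Sham.

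TLRs are membrane receptors of innate immunity. Those on the cell surface bind mainly parts of the bacterial envelope and flagellin, and those in endosomes bind nucleic acids. Once bound, they recruit adaptors with a TIR domain: Myd88 serves every TLR except Tlr3, as well as the receptors of IL-1 and IL-18, and leads through the IRAK kinases and Traf6 to NF-κB and interferon regulatory factors. In the retina they are best known from microglia, the resident phagocytes, and some are also found in Müller glia, pigment epithelium and infiltrating leukocytes.

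The values were the authors' regularized log (rlog) values, a log2 scale with library size taken out and each value drawn toward its gene's mean, so that differences are understated and most so for weakly expressed genes. Read depth is unknown from such values, and levels are compared between groups for one gene and never between genes. The labels do not say whether the 3 libraries of a group came from separate animals (the methods count 3 per group), and p-values measure the spread between these libraries. *Gnat1*, rod transducin, had a mean rlog of 17.93 in NT and 16.76 in Sham, so the libraries were retinal by this rod gene. Lens genes stood apart between libraries: the mean of 8 lens genes lay 4.94 and 4.04 above the NT mean in DPSC replicates 1 and 3 and 3.01 above it in MSCEPO replicate 3, against -0.40 in DPSC replicate 2.

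All 9 genes had their lowest mean in NT, followed by Sham, DPSC, MSCEPO and MSC in that order. This exact order was held by 9.25% of the 15424 genes tested. For each of the 9 genes the NT and Sham libraries did not overlap, as for 16.6% of all genes with Sham higher. The libraries of Sham and DPSC, of DPSC and MSCEPO, and of MSCEPO and MSC overlapped. Such overlap was usual: 4.75% of all genes were apart with DPSC above Sham, and 2.18% with MSC above MSCEPO. For DPSC and MSCEPO that share was not computed. A gene was called changed where limma's moderated test, fitted on the 15 libraries and adjusted by the Benjamini-Hochberg method over all genes tested, gave an adjusted p under 0.05 together with a difference of more than 1 on the log2 scale. By that rule 5 of the 9 genes rose in MSC against NT, where 5.71% of all genes tested were called higher, and 2 rose in MSCEPO, against 2.33%. In Sham and DPSC 0 were called, against 0.292% and 0.784% of all genes called in either direction. The genes tested had a mean rlog of at least 3.32. *Tlr5*, whose NT mean was 3.17, passed only through the groups in which it was higher. The filter thus favours a higher result for it against NT, and the counts over the 9 genes include it.

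**Figure D1:**
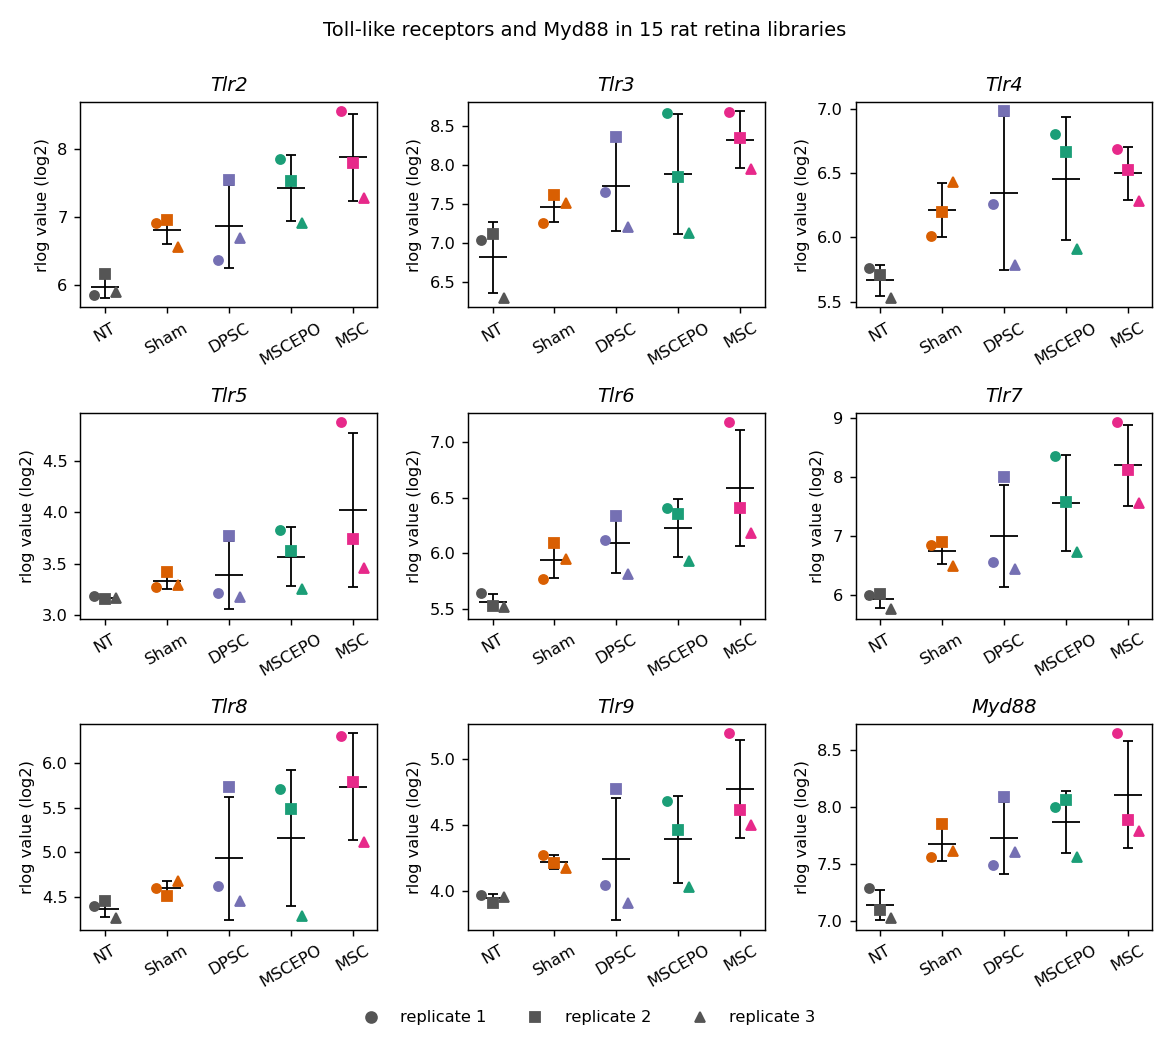
Regularized log values (log2, vertical axis) of 8 Toll-like receptor genes and Myd88 by group, with a marker shape for each replicate number, the group mean as a horizontal line and 1 SD as the error bar, n = 3. In each panel the NT libraries lie below all Sham libraries, and the highest library is one that received cells.

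Among the receptors of the cell surface, *Tlr2* (ENSRNOG00000009822), which binds bacterial lipoproteins as a pair with Tlr1 or Tlr6, had rlog values of 5.85, 6.16 and 5.90 in NT and 6.90, 6.95 and 6.56 in Sham. It reached 8.55, 7.79 and 7.28 in MSC, 7.85, 7.52 and 6.90 in MSCEPO, and 6.36, 7.54 and 6.68 in DPSC. Every NaIO3 library was thus above every NT library, and the 3 MSC libraries were also above every Sham library. Its partner *Tlr6* (ENSRNOG00000002161) stood at 5.64, 5.53 and 5.52 in NT, 5.77, 6.09 and 5.95 in Sham, 7.18, 6.41 and 6.18 in MSC, 6.41, 6.35 and 5.93 in MSCEPO, and 6.12, 6.34 and 5.81 in DPSC. The NT libraries of *Tlr6* were again below all others, with MSC replicate 1 far above the rest.

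*Tlr4* (ENSRNOG00000010522), the receptor of lipopolysaccharide, had values of 5.76, 5.71 and 5.53 in NT, 6.01, 6.20 and 6.43 in Sham, 6.69, 6.52 and 6.28 in MSC, 6.80, 6.66 and 5.91 in MSCEPO, and 6.26, 6.98 and 5.79 in DPSC. The MSC and MSCEPO means differed by 0.04, and MSC overlapped with Sham. *Tlr5* (ENSRNOG00000022067), the flagellin receptor, was near 3.2 in all NT libraries at 3.19, 3.16 and 3.17, and was measured at 3.28, 3.42 and 3.29 in Sham, 4.87, 3.74 and 3.46 in MSC, 3.83, 3.62 and 3.26 in MSCEPO, and 3.22, 3.77 and 3.18 in DPSC. MSC replicate 1 was more than 1 above every library outside the MSC group, and DPSC overlapped with NT.

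The receptors of endosomes had both the widest and the narrowest difference between MSC and NT, in *Tlr7* and *Tlr9*. *Tlr3* (ENSRNOG00000021726), which binds double-stranded RNA and signals without Myd88, had values of 7.04, 7.11 and 6.29 in NT, 7.25, 7.62 and 7.51 in Sham, 8.68, 8.35 and 7.95 in MSC, 8.67, 7.85 and 7.13 in MSCEPO, and 7.65, 8.36 and 7.20 in DPSC. NT replicate 3 was 0.53 below the NT mean, the largest distance of any NT library for these genes. *Tlr7* (ENSRNOG00000004249), a receptor of single-stranded RNA, went from 6.0, 6.02 and 5.76 in NT and 6.85, 6.89 and 6.49 in Sham to 8.92, 8.11 and 7.55 in MSC, with 8.35, 7.57 and 6.73 in MSCEPO and 6.56, 7.99 and 6.44 in DPSC. Its MSC libraries were above every Sham library, while MSCEPO and DPSC each had at least 1 library within or below the Sham range.

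*Tlr8* (ENSRNOG00000045992), the neighbouring receptor of single-stranded RNA on chromosome X, had values of 4.40, 4.45 and 4.26 in NT, 4.60, 4.51 and 4.68 in Sham, 6.31, 5.79 and 5.12 in MSC, 5.71, 5.49 and 4.29 in MSCEPO, and 4.62, 5.73 and 4.45 in DPSC. MSCEPO replicate 3 fell within the NT range for this gene, and DPSC replicate 3 equalled the highest NT library to 2 decimals. *Tlr9* (ENSRNOG00000048161), which binds unmethylated CpG DNA, stood at 3.97, 3.91 and 3.95 in NT, 4.27, 4.21 and 4.17 in Sham, 5.19, 4.61 and 4.50 in MSC, 4.68, 4.46 and 4.03 in MSCEPO, and 4.04, 4.77 and 3.91 in DPSC. *Myd88* (ENSRNOG00000013634), the adaptor, had values of 7.29, 7.10 and 7.03 in NT, 7.56, 7.85 and 7.62 in Sham, 8.65, 7.89 and 7.79 in MSC, 8.0, 8.06 and 7.56 in MSCEPO, and 7.49, 8.09 and 7.61 in DPSC. For the adaptor all 12 NaIO3 libraries were above NT, and the MSC and Sham libraries overlapped.

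To show what the genes share upstream of their starts, RefSeq promoter windows (250 bases before to 50 after the annotated start, rat build GRCr8, a later build than the Rnor_6.0 used by the authors) were searched on both strands for 3 motifs of factors known in this pathway. All 9 genes had a window. The core of PU.1, the myeloid factor, was searched as GAGGAA, the interferon-stimulated response element as GAAA, any 2 bases and GAAA, and the NF-κB site as GGG, any 5 bases and CC. The PU.1 core was in 6 of the 9 windows (*Tlr3*, *Tlr4*, *Tlr6*, *Tlr7*, *Tlr8* and *Tlr9*) and in 27.6% of 33469 rat promoters of the same length. The NF-κB site was in *Tlr2* and *Tlr3*, against 47.3% of all promoters, and the interferon element in *Myd88*, against 3.92%. *Tlr5* held none of these letters. The windows below are those of the pair of genes called in both MSC and MSCEPO against NT, of *Tlr3*, with 2 of the motifs, and of the adaptor. They are printed 5′ to 3′ on the gene's strand, with motif matches in capitals. A match describes the letters only and is not a measured binding site.
Tlr2 promoter, chr2:171504508-171504807, minus strand: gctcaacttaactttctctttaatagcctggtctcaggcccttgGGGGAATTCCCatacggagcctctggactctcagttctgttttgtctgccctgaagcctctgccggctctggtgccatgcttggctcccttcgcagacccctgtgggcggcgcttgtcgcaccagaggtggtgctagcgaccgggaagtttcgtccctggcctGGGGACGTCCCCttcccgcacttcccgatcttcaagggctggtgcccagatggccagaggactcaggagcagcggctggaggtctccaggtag
Tlr3 promoter, chr16:53554666-53554965, plus strand: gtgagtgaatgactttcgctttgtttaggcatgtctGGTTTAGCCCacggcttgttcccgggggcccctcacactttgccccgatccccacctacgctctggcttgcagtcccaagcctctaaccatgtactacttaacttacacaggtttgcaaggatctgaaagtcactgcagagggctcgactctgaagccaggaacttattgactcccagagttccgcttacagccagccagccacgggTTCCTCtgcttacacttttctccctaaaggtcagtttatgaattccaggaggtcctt
Tlr7 promoter, chrX:30644176-30644475, plus strand: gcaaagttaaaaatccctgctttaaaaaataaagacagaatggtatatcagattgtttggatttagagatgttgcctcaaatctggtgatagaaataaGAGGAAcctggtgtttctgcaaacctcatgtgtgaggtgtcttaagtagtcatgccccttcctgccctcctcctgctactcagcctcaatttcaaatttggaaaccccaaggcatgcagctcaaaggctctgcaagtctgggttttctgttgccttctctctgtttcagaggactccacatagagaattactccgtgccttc
Myd88 promoter, chr8:127956181-127956480, minus strand: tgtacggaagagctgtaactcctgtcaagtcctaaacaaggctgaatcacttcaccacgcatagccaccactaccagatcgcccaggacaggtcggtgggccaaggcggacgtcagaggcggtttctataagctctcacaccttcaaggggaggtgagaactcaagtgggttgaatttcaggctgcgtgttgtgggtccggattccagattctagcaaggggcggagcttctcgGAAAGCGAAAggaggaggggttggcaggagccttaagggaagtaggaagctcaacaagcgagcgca

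In the *Tlr2* window the capitals are runs in which overlapping NF-κB matches begin at positions -206 and -43 from the start, on both strands. In *Tlr3* they are an NF-κB match at -214 and a PU.1 core at -7, both on the opposite strand. The *Tlr7* window holds its PU.1 core at -152, and the *Myd88* window its interferon element at -16.

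Comparison of Sham with NT asked how these genes differed after NaIO3 with vehicle. By the methods the vehicle was injected without cells, and NT was untreated, so NaIO3 and the injection cannot be told apart. All 9 means were higher in Sham, by 0.15 (*Tlr5*) to 0.83 (*Tlr2*) on the log2 scale, with a median of 0.54 against 0.005 over all genes tested. Sham and NT libraries were apart for 9 of 9 genes, *Tlr5* with its NT mean under the filter among them, against 16.6% of all genes tested that were apart in this direction. None of the 9 genes was called, against 0.292% of all genes. *Tlr2* was 1.78-fold higher (95% interval of the log2 difference 0.09 to 1.58, adjusted p = 0.338) and *Myd88* 1.46-fold higher (0.05 to 1.04, adjusted p = 0.347), and these 2 had an unadjusted p under 0.05, as had 6.29% of all genes in this direction. *Tlr7* differed by 0.81 (adjusted p = 0.527). The spread behind these values came from all 15 libraries. In a limma fit of the 6 NT and Sham libraries alone, chosen after seeing the data, 5 of the 8 genes tested had an adjusted p under 0.05, without a 2-fold change: *Tlr7* (adjusted p = 0.0138), *Tlr2* (0.014), *Myd88* (0.0316), *Tlr9* (0.0354) and *Tlr4* (0.0392). By that measure 8.65% of all genes passed.

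MSC against NT gave the largest differences. All 9 genes were higher, with a median of 1.02 on the log2 scale against 0.002 over all genes tested, and the libraries were apart for 9 of 9 genes, against 22.9% of all genes. Of these, 5 were called, against 5.71% of all genes called higher. They were *Tlr7* (4.81-fold, log2 difference 2.27, 95% interval 1.27 to 3.26, adjusted p = 0.00625), *Tlr2* (3.75-fold, interval 1.16 to 2.65, adjusted p = 0.00375), *Tlr3* (2.86-fold, adjusted p = 0.0169), *Tlr8* (2.58-fold, adjusted p = 0.0323) and *Tlr6* (2.03-fold, adjusted p = 0.0102). *Myd88*, at 1.96-fold (adjusted p = 0.0128), and *Tlr9*, at 1.77-fold (adjusted p = 0.0273), passed the adjusted p and missed the fold, so that 7 genes passed the adjusted p, against 17.4% of all genes in either direction. *Tlr4* (0.83, adjusted p = 0.0594) and *Tlr5* (0.85, adjusted p = 0.0605) missed both. *Tlr6* and *Myd88* thus lay just to either side of the 2-fold threshold. Without MSC replicate 1 the calls fell to 2 (*Tlr2* and *Tlr7*) and without NT replicate 3 to 3. Over all genes, 516 and 542 were called higher in these 2 fits, in place of 881. *Tlr3* was lost in both of these fits, *Tlr6* in the first, and *Tlr8* in all 6 fits that left out 1 library except that without MSC replicate 3, whereas *Tlr2* and *Tlr7* were called in all 14 alternatives run.

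Against the same NT libraries, MSCEPO was higher for all 9 genes, by 0.39 (*Tlr5*) to 1.62 (*Tlr7*), with a median of 0.79. For 8 of 9 genes the libraries were apart, *Tlr8* being the exception, against 16.5% of all genes. *Tlr2* (2.74-fold, log2 difference 1.45, 95% interval 0.71 to 2.20, adjusted p = 0.0174) and *Tlr7* (3.08-fold, 1.62, interval 0.63 to 2.62, adjusted p = 0.038) were called, against 2.33% of all genes called higher. *Tlr3* differed by 1.07 (adjusted p = 0.0895) and *Myd88* by 0.74 (adjusted p = 0.0554). MSCEPO replicate 3 stood apart: its 9 values lay on average 0.35 above NT, below the 0.44 to 0.57 of the Sham libraries. Without it 5 genes were called, and without any 1 of NT replicates 1 and 3 and MSCEPO replicates 1 and 2 the count was 0, and without NT replicate 2 it was 1. The calls over all genes moved in the same direction. Without MSCEPO replicate 3, 653 genes were called higher, in place of 360. The other removals gave 170 (without NT replicate 3) to 246 (without NT replicate 1 or 2).

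DPSC, compared with those NT libraries as well, showed 9 higher means and 0 called genes, against 0.784% of all genes. The differences ran from 0.21 (*Tlr5*) to 1.07 (*Tlr7*, 95% interval 0.08 to 2.06, adjusted p = 0.259), with a median of 0.59. An unadjusted p under 0.05 was reached by 6 genes, against 8.91% of all genes, and the smallest adjusted p was 0.205 (*Tlr2*). The libraries were apart from NT for 6 of 9 genes, against 16% of all genes, and overlapped for *Tlr5*, *Tlr8* and *Tlr9*. DPSC replicate 2 was the highest of its group for 9 of 9 genes.

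**Figure D2:**
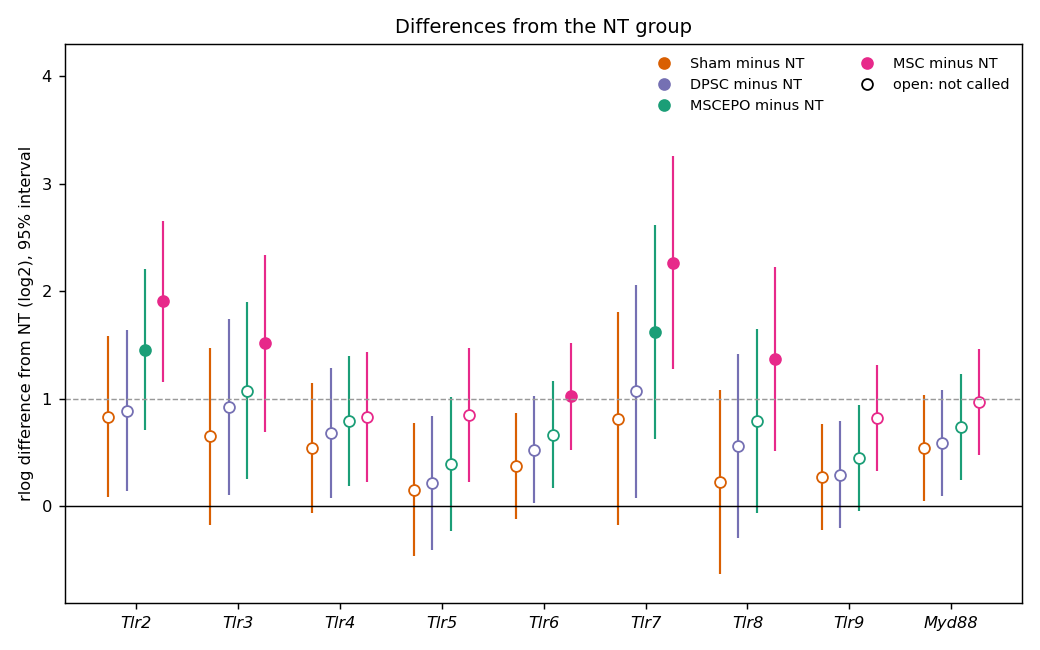
Difference of each group from NT (log2 of rlog values, vertical axis) for 9 genes, with 95% intervals from the fit of 15 libraries; filled points were called and the dashed line marks the 2-fold threshold. Tlr7 and Tlr2 have the highest MSC points, at 2.27 and 1.91, and no Sham or DPSC point is filled.

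Comparison with Sham set the injected cells, together with the immunosuppression, against NaIO3 with vehicle. MSC was higher than Sham for all 9 genes, from 0.29 (*Tlr4*) to 1.45 (*Tlr7*), with a median of 0.69. The groups were apart for 7 of 9 genes, against 13.1% of all genes, and overlapped for *Tlr4* and *Myd88*. None was called (smallest adjusted p = 0.177, *Tlr7*, interval 0.46 to 2.44), and in this comparison limma called 0% of all genes. The study, using DESeq2 with the same thresholds, reported many genes higher and many lower than Sham in both MSC and MSCEPO. Unadjusted p-values were under 0.05 for 7 of the 9 genes and, over all genes, for 1463 that were higher (9.49%) and 589 that were lower. Without MSC replicate 3, *Tlr2* was called (adjusted p = 0.0493) together with 524 genes in all. MSCEPO and Sham overlapped for 9 of 9 genes, where 7.44% of all genes were apart with MSCEPO higher, and differed by 0.17 (*Tlr9*) to 0.81 (*Tlr7*, interval -0.19 to 1.80), with 0 called against 0.0195% of all genes and 0 with an unadjusted p under 0.05 against 3.19%. DPSC and Sham also overlapped for 9 of 9, against 4.75% of all genes apart with DPSC higher, with differences from 0.02 (*Tlr9*) to 0.34 (*Tlr8*, interval -0.52 to 1.19), 0 called against 0.013% of all genes and 0 with an unadjusted p under 0.05 against 0.985%. The intervals allow DPSC to be up to 1.25 higher or 0.74 lower than Sham for *Tlr7*. The 3 comparisons share the Sham libraries, and the 4 with NT share the NT libraries.

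MSC and MSCEPO, the cells without and with the erythropoietin construct, were compared directly. By the methods MSCEPO were also transduced and sorted, so erythropoietin, the tag, transduction and sorting cannot be told apart here. All 9 means were higher in MSC, by 0.04 (*Tlr4*) to 0.64 (*Tlr7*, interval -0.35 to 1.64), the libraries overlapped for 9 of 9 genes, against 2.18% of all genes apart with MSC higher, and 0 were called, against 0% of all genes. Over all genes an unadjusted p under 0.05 was reached by 436 higher (2.83%) and 149 lower genes, and by 0 of the 9. The same-numbered libraries of these 2 groups deviated together, with correlations of 0.159 to 0.279 against -0.365 to 0.064 between different numbers, which the labels do not explain. Differently numbered libraries of other pairs of groups reached up to 0.681 (MSCEPO replicate 1 with DPSC replicate 2). Within the same-numbered pairs of MSC and MSCEPO, MSC was higher in 3 of 3 for 7 of the 9 genes, against 13.8% of all genes. The exceptions were *Myd88* (2 of 3) and *Tlr4* (1 of 3). For *Tlr7* the pairs differed by 0.57, 0.55 and 0.81. A limma fit of the 6 libraries with the number as a block, added after seeing the data, called 0 of the 9 genes and 0 of all 15466 genes tested. In it *Tlr7*, *Tlr8* and *Tlr9* had an unadjusted p under 0.05, as had 522 higher and 38 lower genes over all. The limma adjusted p of each of these 3 genes was 0.981. The size of the difference moved with the libraries kept. With MSC replicate 1 and MSCEPO replicate 3 left out, the highest MSC and the lowest MSCEPO library for 9 of 9 genes, the differences were -0.33 (*Tlr4*) to -0.016 (*Tlr9*), a shift downward that the choice of libraries brings with it. The opposite removal, of MSC replicate 3 and MSCEPO replicate 1, was added after seeing the data and gave 0.32 (*Tlr4*) to 1.37 (*Tlr7*). In a test for any difference among the 5 groups, *Tlr2* passed (adjusted p = 0.0316) and *Tlr7* did not (0.0532), against 6.22% of all genes that passed. In that test 0 of the 9 genes passed without any 1 NT or Sham library, MSC replicate 2 or MSCEPO replicate 2, and 2, 3 and 5 passed without DPSC replicate 2, MSC replicate 3 and MSCEPO replicate 3. The count over all genes also moved with the library left out, as given in the last section.

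Within the cell groups the 9 genes moved together from library to library. MSC replicate 1 was highest and MSC replicate 3 lowest for 9 of 9 genes, against 45.9% and 39% of all genes tested. MSCEPO replicate 1 was highest for 8 and replicate 3 lowest for 9, against 34.6% and 47.1% of all genes. In DPSC, replicate 2 was highest for 9 and replicate 3 lowest for 7, against 37.8% and 38.7%. Averaged over the 9 genes, the distance above NT was 1.83, 1.18 and 0.84 in MSC replicates 1 to 3, 1.30, 1.00 and 0.35 in MSCEPO and 0.42, 1.22 and 0.28 in DPSC. DPSC replicates 1 and 3 were therefore below every Sham library, which stood at 0.44, 0.57 and 0.46, and DPSC replicate 2 was above MSC replicate 2.

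Genes of leukocytes moved in the same libraries. The microglia and macrophage list (13 of 14 genes tested) was 0.75 to 1.47 above NT in the Sham libraries, 1.67 to 3.06 in MSC, 1.43 to 2.20 in MSCEPO and 0.72 to 1.90 in DPSC, and 13 of its 13 genes had higher means in each of the 4 groups. In MSC 11 of these rose and in MSCEPO 11, where 5.71% and 2.33% of all genes were called higher, in DPSC 2, against 0.525%, and in Sham 0, against 0.266%. *Ptprc*, the leukocyte antigen CD45, had a mean rlog of 6.68 in NT, 7.63 in Sham, 10.74 in MSC, 9.23 in MSCEPO and 8.40 in DPSC. The T and NK cell list (10 of 12 tested) was 0.06 to 0.14 above NT in Sham and 0.88 to 3.14 in MSC, with 8 genes called there, and *Cd3e*, a chain of the T cell receptor complex, had means of 4.20 in NT, 4.28 in Sham and 7.27 in MSC. The B and plasma cell list (4 of 6 tested) was -0.10 to -0.045 from NT in Sham and 1.66 to 4.77 above it in MSC, with 4 called. MSC replicate 1 was highest on all 3 lists. In MSCEPO the T and NK cell list was 0.44 to 1.26 above NT and the B and plasma cell list 0.08 to 2.23. In DPSC they were 0.08 to 1.02 and -0.025 to 1.99 from NT, both highest in replicate 2. In MSCEPO and DPSC 0 genes of the 2 lymphocyte lists were called, where 2.33% and 0.525% of all genes were called higher. Sham thus had higher TLR and microglial means with lymphocyte lists near the NT level. DPSC replicates 1 and 3 were at 0.27 and 0.08 from NT on the T and NK cell list, the first above every Sham library. On the B and plasma cell list they were at -0.025 and 0.10. In DPSC replicate 1 all 9 TLR genes were above every NT library, and in replicate 3 it was 6 of 9.

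The other cell lists were read in the same way. The Müller glia list (6 genes) was 0.22 to 0.57 above NT in Sham and 0.40 to 0.54 above it in MSC, and the endothelial list (5 of 6 tested) 0.50 to 0.63 and 0.21 to 0.72. Of the Müller glia genes 4 of 6 had higher means than NT in each of the 4 groups. In Sham, MSC, MSCEPO and DPSC 0, 2, 2 and 1 of them were called higher, where 0.266%, 5.71%, 2.33% and 0.525% of all genes were. No endothelial gene was called against NT. Rod genes (8 of 8 tested) had list means of -0.79 from NT in Sham, -1.41 in MSC, -1.61 in MSCEPO and -1.10 in DPSC, with 0, 7, 8 and 3 genes called lower, where 0.0259%, 0.985%, 1.24% and 0.259% of all genes were called lower. Pigment epithelium genes (6 of 6 tested) had means of -1.14, -1.48, -1.11 and -0.935, with 0, 3, 1 and 0 called lower. Of the neutrophil list 1 of 7 genes and of the dendritic cell list 4 of 7 were tested, with means of 1.05 and 1.28 above NT in MSC. There 1 gene of each list was called higher, against 5.71% of all genes. The lens list was 1.06 to 1.64 above NT in Sham, and among the libraries with cells it was highest in DPSC replicates 1 and 3 and MSCEPO replicate 3, which had the lowest means of the 9 genes. MSC replicate 1 came next on the lens list, at 2.19, and had the highest mean of the 9 genes, while DPSC replicate 2 and MSCEPO replicate 1, lowest on the lens list at -0.40 and -0.33, had TLR means of 1.22 and 1.30. What part these cell types, the loss of rods or the lens had in the TLR values was not tested. In whole retina, more cells of a type and more RNA per cell cannot be told apart.

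**Figure D3:**
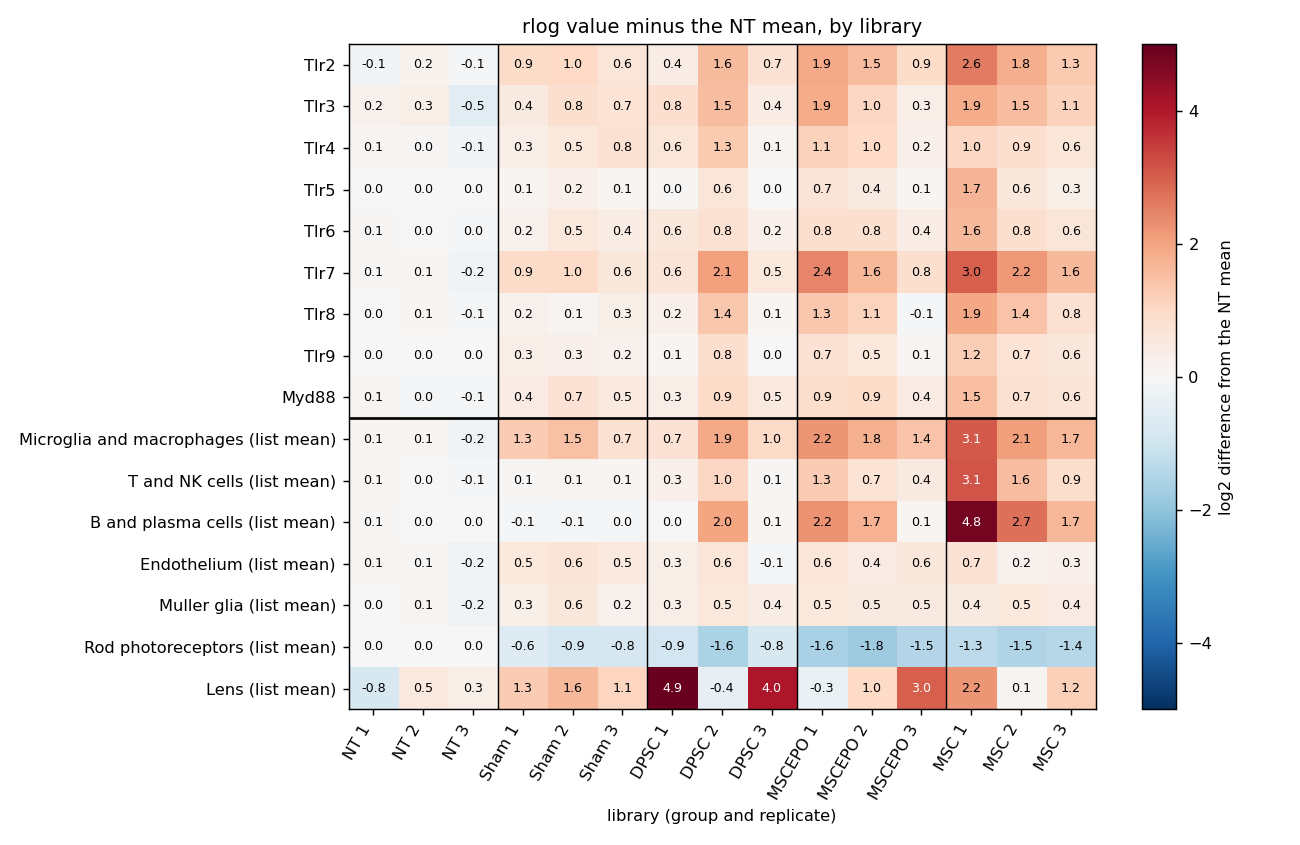
Difference of each library (columns, by group and replicate) from the NT mean in log2 of rlog values, for 9 genes (upper rows) and for the mean of 7 cell type lists (lower rows). Colour and printed number give the same value; MSC replicate 1 has the highest values of most TLR rows and of the 3 leukocyte rows.

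The rest of the pathway was read from 7 lists of 86 genes, of which 71 were tested. In MSC against NT 22 were called higher and 1 lower, with a median difference of 0.41, where 5.71% of all genes were called higher and 0.985% lower. In MSCEPO 9 were called higher and 1 lower (median 0.26), against 2.33% and 1.24% of all genes. In DPSC 0 and 1 were called, against 0.525% and 0.259%, and in Sham 0 and 0, against 0.266% and 0.0259%. The counts of the single lists that follow are to be read against the same shares. None was called in MSC, MSCEPO or DPSC against Sham, or in MSC against MSCEPO, where 0%, 0.0195%, 0.013% and 0% of all genes were called in either direction. Without MSC replicate 1 the 23 MSC calls became 15, and without MSC replicate 3 the MSC calls against Sham were 13. Over all genes, 516 were called higher and 159 lower in the first of these fits, in place of 881 and 152. In the second, 521 were called higher and 3 lower. The MSCEPO calls ranged from 2, without NT replicate 3, to 16, without MSC replicate 1 and MSCEPO replicate 3 together. Over all genes, 170 and 814 were called higher in these fits, in place of 360.

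Of the co-receptors and chaperones 4 of 8 rose in MSC and 3 in MSCEPO. They included *Unc93b1*, which carries the nucleic acid receptors from the endoplasmic reticulum to endosomes, at 1.84 above NT in MSC (adjusted p = 0.00575) and 1.42 in MSCEPO (0.0256). *Cd180*, a TLR-like receptor, rose by 2.05 in MSC (0.00285) and 1.46 in MSCEPO (0.0183), and its partner *Ly86* by 2.23 (0.00498) and 1.68 (0.0253). Of the other TIR adaptors and the receptors that use Myd88, 3 of 7 rose in MSC, *Il1r1* by 1.5 (0.00938) together with both chains of the IL-18 receptor, *Il18r1* (0.0113) and *Il18rap* (0.0123), and *Il1r1* also rose in MSCEPO, by 1.30 (0.0242). The 4 MSCEPO calls were each lost without NT replicate 1, NT replicate 3 or MSCEPO replicate 1 (adjusted p up to 0.102), *Il1r1* in MSCEPO also with the 2 groups alone, and *Il18rap* in MSC without MSC replicate 1 or with the 2 groups alone. The p-values are limma's, adjusted over all genes tested.

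Among kinases and ligases 4 of 18 rose in MSC and 1 in MSCEPO. *Irak4*, the first kinase to join Myd88, rose by 1.11 in MSC (adjusted p = 0.00547) and 1.09 in MSCEPO (0.00732). *Btk*, a tyrosine kinase of B cells and myeloid cells, rose by 1.70 (0.0116) in MSC, and *Pik3ap1*, a PI3K adaptor, by 1.59 (0.0128). The median of the list was 0.22 in MSC, and 14 of the 18 were not called there. Of the transcription factors 5 of 9 rose in MSC and 3 in MSCEPO. *Irf8*, a factor of myeloid and B cells, rose by 3.01 in MSC (0.00251) and 2.08 in MSCEPO (0.0181), *Irf5* by 1.74 (0.00367) and 1.38 (0.0141), and *Irf7*, which drives type I interferon, by 1.74 (0.00545) and 1.52 (0.0137). Without NT replicate 3 the MSCEPO calls of these genes were lost (adjusted p up to 0.0715, *Irf8*; *Irf7* and *Irf8* were also lost without NT replicate 2, *Irf8* and *Irak4* without MSCEPO replicate 1, and *Irf8* without MSCEPO replicate 2), as was *Pik3ap1* in MSC, and *Irak4* in MSC was lost without MSC replicate 1. Quantile normalization took *Irak4* below the 2-fold threshold in both MSC and MSCEPO. All p-values are from the same limma fit.

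The inhibitors went both ways. *Tnfaip3*, which encodes the deubiquitinase A20 that limits NF-κB signaling, lay between 10.88 and 11.02 in NT, 10.14 and 10.27 in Sham, 9.51 and 10.53 in MSC, 8.72 and 9.64 in MSCEPO, and 9.55 and 9.97 in DPSC. All libraries after NaIO3 were below NT, and it was the pathway gene called lower: it fell by 1.61 in MSCEPO (limma adjusted p = 0.00229), by 1.17 in DPSC (0.0348) and by 1.03 in MSC (0.0186). In Sham it differed by -0.71 (0.27) and was not called. The MSCEPO call was kept in all 13 alternatives. The DPSC call was lost in 5 of 6 fits that left out 1 library (adjusted p up to 0.145, kept without DPSC replicate 3) and so was the MSC call (up to 0.0687, kept without MSC replicate 1). *Nfkbie*, an inhibitor that holds NF-κB in the cytoplasm, rose by 1.01 in MSC (0.00684), a call lost without MSC replicate 1, NT replicate 2 or NT replicate 3, with median centring and with quantile normalization, and the other 8 of the 10 inhibitors were not called in MSC.

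Of 11 tested genes that TLRs induce, 5 rose in MSC. *Cxcl10*, a chemokine of interferon responses, rose by 2.60 (limma adjusted p = 0.000839), with its NT libraries between 4.95 and 5.29 and its MSC libraries between 6.70 and 8.48, and by 1.64 in MSCEPO (0.00914), the 1 gene of this list called there. *Ccl5* rose by 1.52 (0.00931) and *Ccl2* by 1.65 (0.0333) in MSC, both chemokines of leukocytes. The *Ccl2* call was lost without any 1 of the NT libraries or of MSC replicates 1 and 2 (adjusted p up to 0.131), without the DPSC libraries and with quantile normalization, and those of *Cxcl10* and *Ccl5* were kept in all 13 alternatives. *Tnf*, *Il6*, *Il12b* and *Cxcl2* had mean rlog values below the threshold for testing. Of 8 tested endogenous ligands, proteins such as *Hmgb1* that can engage TLRs after cell damage, 0 were called in any comparison, against 5.71% of all genes called higher in MSC against NT, a share that comes to less than 1 gene in a list of 8. *Hmgb1* had means of 11.36 in NT and 11.55 in MSC, and *Bgn*, the matrix proteoglycan biglycan, 8.38 and 10.27 (difference 1.89, limma adjusted p = 0.151). *Hmgb1*, *Bgn* and the 4 genes not tested were named after their values were seen.

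**Figure D4:**
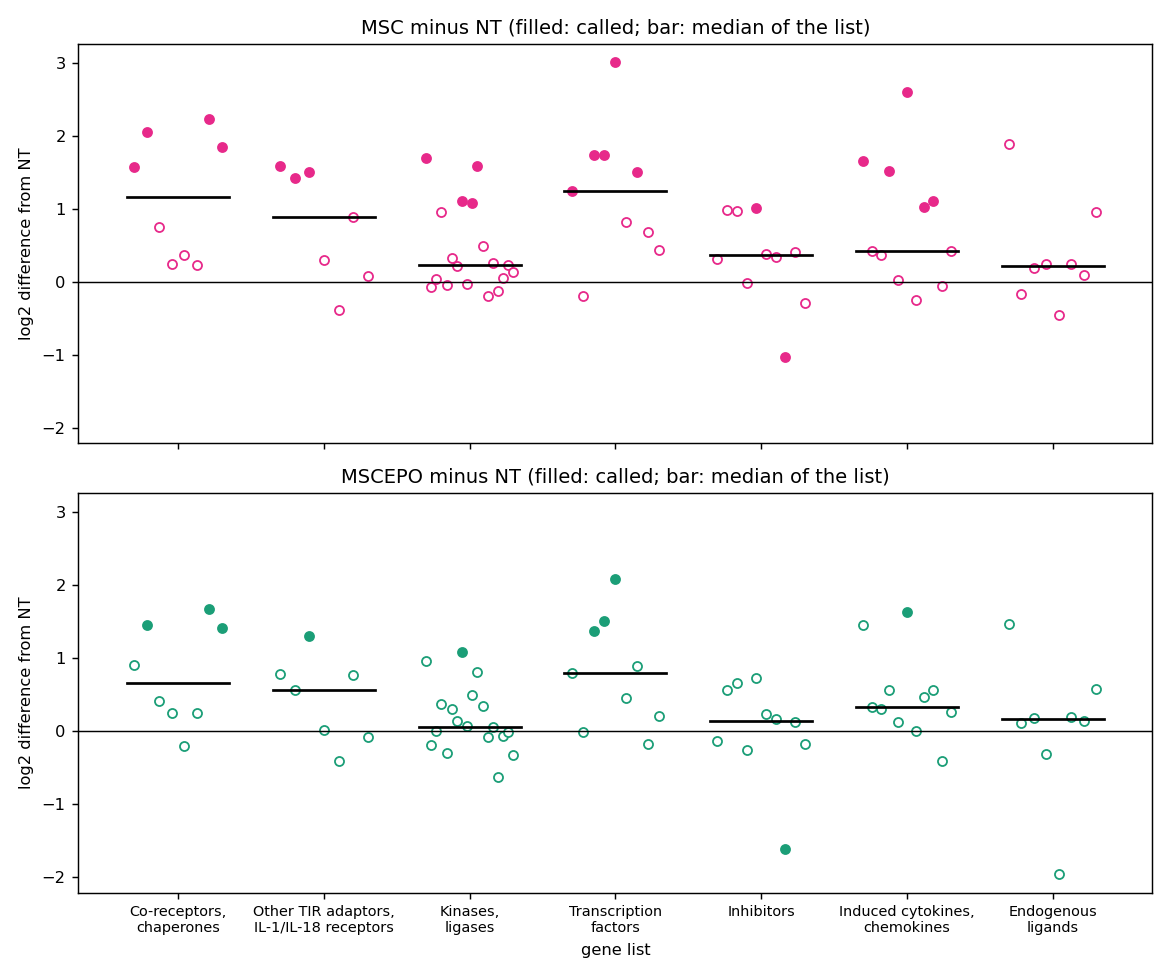
Difference from NT (log2 of rlog values, vertical axis) of the 71 tested genes of 7 TLR pathway lists in MSC (upper panel) and MSCEPO (lower panel); filled points were called and the bars are list medians. The transcription factors and co-receptors have the highest medians in MSC, at 1.25 and 1.16.

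The genes most like each TLR gene in pattern were sought by the root mean square (RMS) difference of values from the NT mean over the 15 libraries. Nearest to *Tlr2* were *Irf5* (0.142), *Cd180* (0.144) and *Csf1r* (0.166), where the median over all genes was 1.28. *Irf5* and *Cd180* are also in the pathway lists and *Csf1r*, the receptor of a macrophage growth factor, in the microglia list. Among the 3 nearest to *Tlr7* were *Clec4a3* (0.152) and *Apbb1ip* (0.19), and nearest to *Myd88* were *Lap3* (0.131), *Gsdmd* (0.137) and *Gnai2* (0.148). *Tlr3* was followed by *Xaf1*, *Nmi* and *Msn* at 0.229 to 0.233, *Tlr4* by *Zfp217*, *Notch2* and *Ano6*, *Tlr5* by *Prcp*, LOC100364016 and *Cdca3*, *Tlr6* by *Tor4a*, *Nod1* and *Ostf1*, *Tlr8* by *Elf1*, *Msr1* and *Tent5a*, and *Tlr9* by *Adap2*, *Aoah* and *Vrk2*. Among the 9 genes themselves, *Tlr6* and *Myd88* were the most alike (0.134) and *Tlr5* and *Tlr7* the least (1.01). These distances share libraries and groups and depend on how far each gene moves, and they carry no test.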

How the data were processed

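RNA-Seq of rat retina gave 15 libraries, 3 in each of 5 groups, as the labels name them. Reads were quantified by the authors with Salmon 1.1.0 against Rnor_6.0 and summed to genes with tximport. The authors deposited log2 values, the rlog transformation of DESeq2 (version 3.2 in the submitters' processing notes), corrected for library size. A table of the whole series was left aside: 0 of the values in its 15 sample columns differed from the sample files by more than 1e-06. Of the 20375 genes, 2591 had no symbol. Library medians over the 15424 genes tested lay between 8.63 and 8.82.

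Here R 4.3.3 with limma 3.58.1 was used, with Python 3.11.15, numpy 2.4.6, pandas 2.3.3 and matplotlib 3.10.9 for summaries and figures. Genes with a mean rlog of at least 3.32 (the log2 of 10) entered one fit of group means over the 15 libraries, with a variance trend. The 8 comparisons were each adjusted by the Benjamini-Hochberg method. Called genes had an adjusted p under 0.05 and a change over 2-fold. The study set these thresholds for DESeq2 tests, and here they were put on limma tests of rlog values, so the counts are not comparable. Intervals are 95% intervals of that fit. An exact permutation test of 3 against 3 cannot give a p under 0.1 and was not used. Levels of a list are means over its tested genes. The 10 genes and the lists were chosen with earlier results of these data known. Beside the 10, up to 3 called genes per pathway list and comparison with the smallest adjusted p are named, markers that check the tissue or cell types (*Gnat1*, *Ptprc* and *Cd3e*), and the 3 nearest genes in pattern. Of the genes these rules take in, 2 are not reported here. The code was tested on simulated data with 200 changed genes. Alternatives tried were calls by adjusted p alone, all genes without the filter, 12 libraries without DPSC, a replicate block, median centring, quantile normalization, 2 groups alone, 2 libraries left out together (MSC replicate 1 and MSCEPO replicate 3, chosen with their values known) and each library left out in turn. The labels do not say that replicate numbers pair samples. Correlations of deviations from the group means were over 0.1 for 12 of 30 same-numbered and 19 of 60 differently numbered pairs of libraries. Of 10 pairs of groups, MSC and MSCEPO alone had all 3 same-numbered pairs over 0.1, so a blocked fit of these groups was added.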

Additional observations from a re-analysis of the deposited data

How the results depend on the processing

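Of 8 comparisons and the test of any difference, the count of called TLR genes was 0 in every alternative for DPSC against NT, MSCEPO and DPSC against Sham, and MSC against MSCEPO. Sham against NT went from 0 to 5 with the 2 groups alone and the adjusted p alone, and stayed at 0 otherwise. MSC against NT went from 5 to 8 in that fit, was 4 to 7 in the other alternatives with all libraries or with MSC replicate 1 and MSCEPO replicate 3 both left out, and 2 to 7 with each library left out. MSCEPO against NT went from 2 to 1 without the filter, 1 with the 2 groups alone (also by adjusted p alone), 5 without MSC replicate 1 and MSCEPO replicate 3 together, and 0 to 5 with each library left out. MSC against Sham was 0 to 1 with each library left out. The test of any difference went from 1 to 2 with 12 libraries, 2 with the replicate block, 2 with median centring, 4 without these 2 libraries, and 0 to 5 with each left out. The cause of these moves was not tested. The replicate block otherwise gave 3 called genes in MSCEPO against NT, with *Tlr3* added; beside the test of any difference it changed no other call of the 9 genes. Over the 5 groups 6 of 15 libraries correlated best with their own number. The blocked fit of MSC and MSCEPO alone left the count at 0.

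Some differences that were not called turned negative. For DPSC minus Sham, leaving out 1 library at a time gave ranges of -0.282 to 0.305 for *Tlr2*, -0.245 to 0.533 for *Tlr7*, -0.243 to 0.185 for *Tlr9*, -0.184 to 0.409 for *Tlr4*, -0.136 to 0.165 for *Myd88*, -0.13 to 0.167 for *Tlr5*, -0.062 to 0.579 for *Tlr8* and -0.039 to 0.543 for *Tlr3*, each lowest without DPSC replicate 2. *Tlr2* was -0.066 without Sham replicate 3, *Myd88* -0.014 without Sham replicate 1 and *Tlr9* -0.082 with quantile normalization. For MSC minus MSCEPO, without MSC replicate 1 and MSCEPO replicate 3 together: *Tlr4* -0.33, *Myd88* -0.197, *Tlr8* -0.149, *Tlr2* -0.144, *Tlr7* -0.127, *Tlr5* -0.124, *Tlr3* -0.111, *Tlr6* -0.088 and *Tlr9* -0.016. *Tlr4* was also -0.018 with median centring, -0.085 with quantile normalization, -0.057 without MSC replicate 1 and -0.234 to 0.211 over the libraries left out (lowest without MSCEPO replicate 3), and *Myd88* was -0.039 (without MSC replicate 1) to 0.393.

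Over all genes, calls in Sham against NT were 45, and 177 with the 2 groups alone, 137 by adjusted p alone and 17 to 28 with each library left out. The adjusted p alone gave 2677 in place of 1033 in MSC, 1795 in place of 551 in MSCEPO and 439 in place of 121 in DPSC against NT. With each library left out they ranged from 670 to 1249 in MSC, 307 to 834 in MSCEPO and 48 to 171 in DPSC. MSC against Sham was 0, 13 with 12 libraries, 32 with the 2 groups alone and 524 without MSC replicate 3, MSCEPO against Sham 0 to 17, DPSC against Sham 0 to 5, and MSC against MSCEPO 0 to 1, and 6 without MSC replicate 3 and MSCEPO replicate 1 together. The test of any difference passed 960 genes, 229 to 2097 with each library left out and 2476 without MSC replicate 1 and MSCEPO replicate 3. Quantile normalization moved the median difference of all genes in MSC against NT from 0.002 to -0.101 and the share of higher calls from 85.3% to 78.1%. The fold of *Tlr6* in MSC against NT was then below 2, as with median centring. Depth could not be judged from rlog values, and their shrinkage bears most on *Tlr5*, *Tlr8* and *Tlr9*.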
